A study of Rattus norvegicus with 12 samples.

Results

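The miRNAs described here are ones known for liver, gut and endocrine tissue, read in small RNA of the rat hippocampus. They were chosen by name, as the guide arms of miR-122, miR-192, miR-194, miR-215 and miR-375, where the guide arm is the strand of a precursor that is usually kept. The count files listed 4 of these 5 guide arms among 753 mature miRNAs, namely rno-miR-122-5p, rno-miR-192-5p, rno-miR-194-5p and rno-miR-375-3p. A row for rno-miR-215 was not found, and its level was not analysed here.

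Male Sprague Dawley rats in early adulthood, aged 70 to 80 days and bred in-house, received vehicle or 4 g/kg ethanol (diluted in saline) by intraperitoneal injection. They were decapitated 3 h later, and each library came from 1 rat. Libraries from 4 vehicle rats (numbers 9, 10, 19 and 20) and 8 ethanol rats (numbers 3, 4, 7, 8, 15, 16, 23 and 24) were analysed, and the remaining vehicle rats of a planned 8 per group were not analysed here. The labels call the tissue right hippocampus, while the study's text describes dorsal hippocampus. Library totals ranged from 1960704 to 4917928 estimated reads (median 3742260 in vehicle and 2751741 in ethanol rats), so that 3 reads, taken as the smallest detectable amount, were worth 0.610 to 1.53 reads in every 1000000 of the library total. Levels are given as CPM, reads in every 1000000 of a library total scaled by TMM (trimmed mean of M-values), while floors and pooled group values use the plain totals. This floor and the intervals given for reads cover counting error only. Summed over 5 miRNAs known from neurons, miR-124-3p, miR-9a-5p, miR-128-3p, miR-138-5p and miR-153-3p, the level was 31429 to 39729 CPM in every library.

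A miRNA is a short RNA that guides a silencing complex to messenger RNAs, mainly through its seed, bases 2 to 8 from the 5′ end. MiR-122 makes up much of the miRNA of hepatocytes and is used in plasma as a marker of liver injury. MiR-192, miR-194 and miR-215 are abundant in gut epithelium, liver and kidney and are transcribed from paired loci, and miR-375 is known from pancreatic islets and other endocrine and epithelial cells. The mature sequences are shown because they decide which of these miRNAs could share reads or targets. Sequences are RefSeq's for the assembly GRCr8, written 5′ to 3′ with the seed in capitals.

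rno-miR-122-5p: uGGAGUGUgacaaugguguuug
rno-miR-192-5p: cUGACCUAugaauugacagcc
rno-miR-215: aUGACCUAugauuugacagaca
rno-miR-194-5p: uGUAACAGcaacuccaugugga
rno-miR-375-3p: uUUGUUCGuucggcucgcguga

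The 4 miRNAs that were read carry 4 different seeds, and no other mature rat miRNA of the RefSeq table shares the seed of rno-miR-122-5p, rno-miR-194-5p or rno-miR-375-3p. The seed of rno-miR-192-5p is also that of rno-miR-215, and these 2 sequences differ at 3 of the 21 positions compared from the 5′ end. Deposited values of rno-miR-192-5p were fractional in 2 of 12 libraries, and those of rno-miR-122-5p, rno-miR-194-5p and rno-miR-375-3p in 1 each. The 2 fractional values of rno-miR-192-5p were 18825.9 and 14925.4 estimated reads, in vehicle rats 19 and 20. How reads matching more than 1 miRNA were divided is not given in the sources used here. The count of rno-miR-192-5p is therefore uncertain as to reads of the near-identical rno-miR-215. The precursor of miR-192 (GRCr8 chr1:212994209-212994318, + strand) lies 100 bases from that of miR-194-2 (chr1:212994024-212994108, + strand), with no other gene of the RefSeq table over either. The second copy, miR-194-1 (chr13:99382716-99382798, + strand), lies 191 bases from miR-215, both within the span of the protein-coding gene Iars2. Both copies give the same rno-miR-194-5p, so reads from them cannot be told apart. The precursor of miR-122 (chr18:61028817-61028901, + strand) overlaps miR-3591 on the opposite strand and a transcribed pseudogene, and that of miR-375 (chr9:83906582-83906656, - strand) lies within the spans of Cryba2 and of a second protein-coding gene without a name. The submitters' processing notes name the build rn5, and these positions are from GRCr8 alone.

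The 4 miRNAs differed widely in level. Mean CPM over the 12 libraries was 3754 ± 323 (SD, n = 12) for rno-miR-192-5p, 137 ± 67.7 (SD, n = 12) for rno-miR-375-3p, 52.0 ± 4.93 (SD, n = 12) for rno-miR-194-5p and 0.866 ± 0.683 (SD, n = 12) for rno-miR-122-5p. By mean CPM they ranked 38, 171, 225 and 468 of the 753 listed miRNAs. Values are reads per miRNA, which small RNA libraries do not capture with equal efficiency, so the order is one of reads. Within each library rno-miR-192-5p had the most reads of the 4 and rno-miR-122-5p the fewest, and rno-miR-375-3p exceeded rno-miR-194-5p in 11 of 12 libraries, ethanol rat 3 being the exception.

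**Figure D1:**
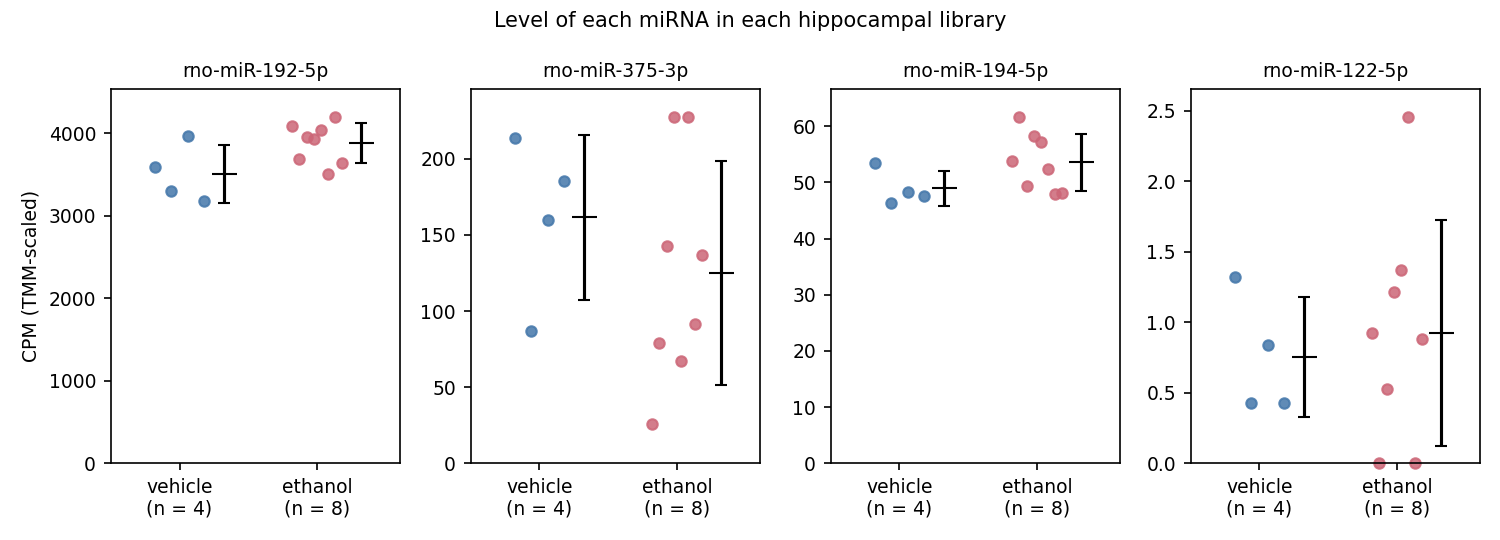
CPM of the 4 miRNAs (vertical axes, TMM-scaled, each from 0) in vehicle and ethanol rats, where each point is 1 library and the bar is the group mean ± SD. The groups overlap for all 4 miRNAs, and rno-miR-375-3p spreads from 25.5 to 228 CPM.

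Reads of rno-miR-122-5p, the hepatocyte miRNA, were at the edge of detection. It had 4, 1, 4 and 2 reads in vehicle rats 9, 10, 19 and 20, and between 0 and 7 reads in the ethanol rats (2, 0, 1, 3, 5, 7, 0 and 3 in rats 3, 4, 7, 8, 15, 16, 23 and 24). Only ethanol rats 4 and 23 had 0 reads, where the floors were 1.27 and 0.958 reads in every 1000000 at their totals. Their exact Clopper-Pearson 95% upper limits were 1.56 and 1.18 reads in every 1000000. Vehicle rats 10 and 20 and ethanol rats 3 and 7, with 1 or 2 reads, also lay under the floor of 3 reads. The highest value, 7 reads in ethanol rat 16, has an exact Poisson interval of 2.81 to 14.4 reads, which overlaps that of every other library. Pooled over a group, 11 of 14645849 reads in vehicle and 21 of 21999367 in ethanol rats gave 0.751 (exact Clopper-Pearson 95% interval 0.375 to 1.34) and 0.955 (0.591 to 1.46) reads in every 1000000. The variation among libraries was close to counting error, with a chi-square per degree of freedom of 1.50 against a constant share.

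**Figure D2:**
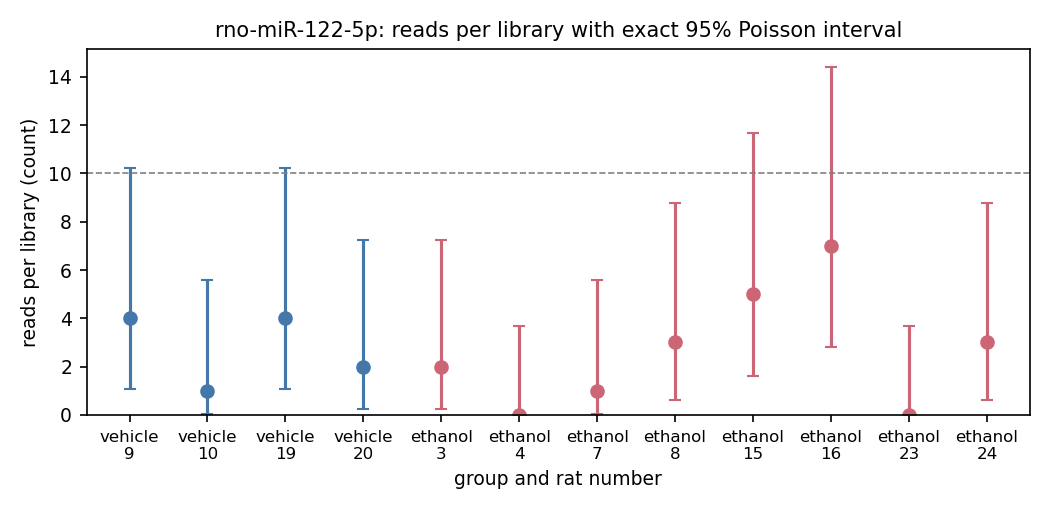
Reads of rno-miR-122-5p per library (vertical axis) with exact 95% Poisson intervals, by group and rat number, and the dashed line at 10 reads used for filtering. No library reaches 10 reads, and the intervals overlap throughout.

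The other arm of the miR-122 precursor, rno-miR-122-3p, had 0 reads in all 12 libraries. Over their 36645216 reads, the floor of 3 reads is worth 0.0819 reads in every 1000000. The guide arm of miR-375 was likewise the one read, with 5197 reads over 12 libraries against 0 for rno-miR-375-5p, at least 1732-fold higher when the floor of 3 reads is taken over all libraries. For miR-194 the passenger arm took 1.30% of the reads of both arms (exact Clopper-Pearson 95% interval 0.846 to 1.92), 25 reads against 1891. For miR-192 it took 0.0168% (0.0106 to 0.0252), 23 reads against 136973.

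Expression of rno-miR-192-5p, the gut, liver and kidney miRNA, was high, with a narrow fold range. It was 3589, 3296, 3959 and 3176 CPM in vehicle rats 9, 10, 19 and 20, and its lowest, median and highest values in ethanol rats were 3510, 3940 and 4198 CPM. Every library thus lay within a 1.32-fold range, and the groups overlapped. Of the 5 neuronal miRNAs, miR-9a-5p (mean 23476.5 CPM) and miR-128-3p (7392 CPM) had means above that of rno-miR-192-5p. Means of miR-124-3p (3137 CPM), miR-153-3p (1461 CPM) and miR-138-5p (622 CPM) lay below it. The SD of log2 CPM of rno-miR-192-5p over libraries was 0.13, rank 372 of 420 when the most variable miRNA is counted first. The median over the retained miRNAs was 0.24. At 7546 to 18826 reads per library its variation was still well above counting error, with a chi-square per degree of freedom of 64.1, against an upper quartile of 32.8 over the retained miRNAs. This ratio rises with the number of reads, so it does not rank miRNAs of unlike level by their spread.

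Expression of rno-miR-194-5p, the partner of miR-192 at the shared locus, was 53.5, 46.4, 48.4 and 47.7 CPM in vehicle rats 9, 10, 19 and 20. In ethanol rats the lowest, median and highest values were 47.9, 53.0 and 61.7 CPM. No library stood apart, and its counts, 94 to 230 per library, varied little more than counting error (chi-square per degree of freedom 1.27, against a median of 5.35 over the retained miRNAs). Its highest value was in ethanol rat 4. Reads of rno-miR-192-5p per read of rno-miR-194-5p ranged from 59.7 to 87.6 (median 70.9), with means of 71.7 ± 7.08 (SD, n = 4) in vehicle and 73.0 ± 8.70 (SD, n = 8) in ethanol rats. Across the 12 libraries the 2 miRNAs were not related beyond what permutation gives (Pearson's r = 0.29, permutation p = 0.363, Spearman's rho = 0.33, permutation p = 0.296, adjusted p = 0.763 and 0.799 over 27 relations, r = 0.37 without the 2 libraries farthest from the median). Because rno-miR-194-5p varied little more than counting error, this comparison cannot decide whether the 2 vary together.

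Expression of rno-miR-375-3p, the islet and endocrine miRNA, had the widest range of log2 CPM of the 3 retained miRNAs. It was 214, 86.8, 160 and 185 CPM in vehicle rats 9, 10, 19 and 20, and 25.5, 79.1, 143, 228, 67.3, 227, 91.2 and 137 CPM in ethanol rats 3, 4, 7, 8, 15, 16, 23 and 24. Low values occurred in both groups, and ethanol rat 3, with 55 reads, was the lowest of all, an 8.93-fold range. The SD of its log2 CPM was 0.92, rank 14 of the 420 retained miRNAs.

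**Figure D3:**
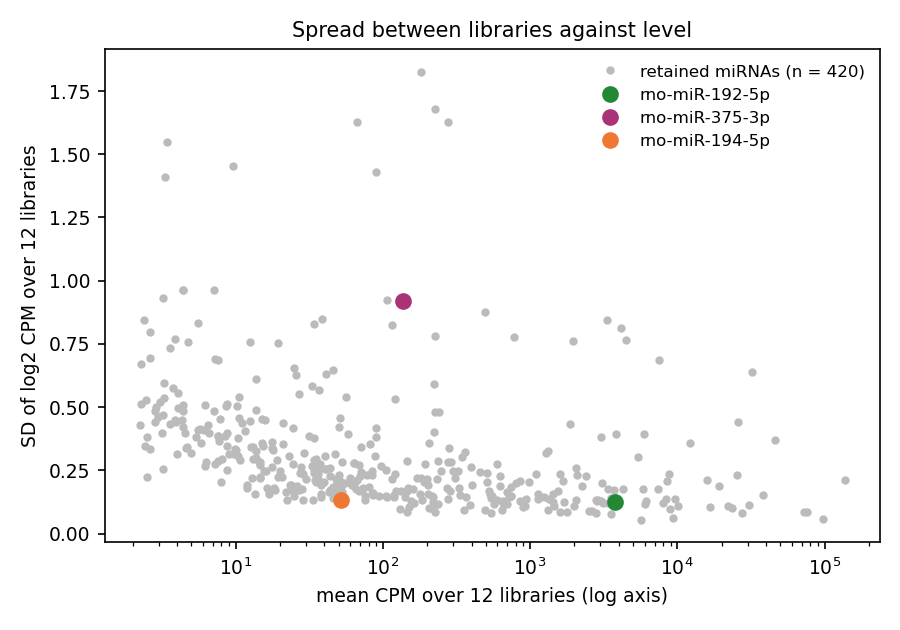
SD of log2 CPM over 12 libraries (vertical axis) against mean CPM (horizontal log axis) for the 420 retained miRNAs in grey, with 3 miRNAs in colour. The SD is 0.13 for both rno-miR-192-5p and rno-miR-194-5p and 0.92 for rno-miR-375-3p.

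To ask whether 3 h of ethanol went with a change in these miRNAs, the 2 groups were compared over 420 retained miRNAs with the quasi-likelihood test of edgeR. Retained miRNAs were those for which under 10 libraries had less than 10 reads, which removed rno-miR-122-5p and kept 3 of the 4. None of the 3 passed an adjusted p of 0.05, as 0 of 420 (0%) did, and none had an unadjusted p under 0.05, as 17 of 420 (4.05%) did. DESeq2's Wald test gave 1 adjusted p under 0.05, which was none of the 3. For 4 rats against 8 the exact permutation test, run on log2 CPM over all 495 assignments, can reach p = 0.00202.

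In rno-miR-192-5p, means were 3505 ± 349 CPM (SD, n = 4) in vehicle and 3879 ± 242 CPM (SD, n = 8) in ethanol rats. The log2 fold change was 0.15 (standard error 0.07, 95% interval -0.01 to 0.30, adjusted p = 0.971 in edgeR's quasi-likelihood test, exact permutation p = 0.0505). All 8 ethanol rats lay above the vehicle mean, 3 of them above every vehicle rat and 5 within the vehicle range. The lowest, ethanol rat 16, cleared that mean only narrowly, at 3509.61 against 3504.78 CPM. On plain library totals, without TMM, ethanol rat 16 was at 3449.92, below the pooled vehicle value of 3575.42. The count of 8 therefore depends on the scaling. The exact permutation p was 0.0384 with DESeq2's size factors, 0.0121 without vehicle rat 19 and 0.0273 without ethanol rat 16, on the other side of 0.05. The unadjusted p of edgeR's quasi-likelihood test was 0.0624, and it was 0.0475, 0.0125 and 0.0398 in these 3 settings. It was also 0.0333 when miRNAs were kept only with 10 reads in 10 libraries, and 0.0459 without ethanol rat 3. With library totals alone, without vehicle rat 10 and without vehicle rat 20, the exact permutation p rose to 0.0909, 0.152 and 0.170. The unadjusted p of edgeR's quasi-likelihood test rose there to 0.117, 0.166 and 0.115. The adjusted p of edgeR was above 0.05 in all of these.

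For rno-miR-194-5p, means were 49.0 ± 3.12 CPM (SD, n = 4) in vehicle and 53.6 ± 5.10 CPM (SD, n = 8) in ethanol rats. The log2 fold change was 0.13 (standard error 0.09, 95% interval -0.07 to 0.33, adjusted p = 0.971 in edgeR's quasi-likelihood test, exact permutation p = 0.123). Of the 8 ethanol rats, 4 lay above every vehicle rat and 4 within the vehicle range.

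For rno-miR-375-3p, means were 161 ± 54.4 CPM (SD, n = 4) in vehicle and 125 ± 73.7 CPM (SD, n = 8) in ethanol rats. The log2 fold change was -0.37 (standard error 0.45, 95% interval -1.34 to 0.60, adjusted p = 0.971 in edgeR's quasi-likelihood test, exact permutation p = 0.341). Of the 8 ethanol rats, 2 lay above every vehicle rat and 3 below every vehicle rat. The log2 fold change of edgeR was -0.18 with log2 library total as a covariate, -0.18 without ethanol rat 3, -0.21 without vehicle rat 9 and -0.58 without vehicle rat 10. Without ethanol rat 3 the difference in mean log2 CPM moved from -0.57 to -0.28, and without vehicle rat 10 to -0.84, with no p under 0.05.

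For rno-miR-122-5p the difference in mean log2 CPM was 0.04 (exact permutation p = 0.913), and its sign changed when vehicle rat 10 or 20 or ethanol rat 8, 15 or 16 was left out. No difference was detectable at this depth.

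Levels were next set beside markers of other sources, to check for RNA of blood or other tissue. Red blood cell miRNAs, miR-451-5p, miR-144-3p and miR-144-5p, were read in every library, at a summed 133 to 229 CPM in vehicle and 61.2 to 309 CPM in ethanol rats. White blood cell miRNAs, miR-142-3p, miR-142-5p, miR-150-5p and miR-223-3p, summed to 790 to 900 and 744 to 1095 CPM. Vessel miR-126a, both arms, summed to 2436 to 2913 and 2207 to 2972 CPM. No member of these 3 lists had an unadjusted p under 0.05 for ethanol in edgeR's quasi-likelihood test. Over all retained miRNAs 17 of 420 (4.05%) did, so for lists this short the count is near that share. A step of perfusion is not described in the study's methods, which give rapid decapitation and freezing of the brain.

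No relation between blood or vessel lists and the members passed the adjustment. Across 12 libraries Pearson's r with the red blood cell list mean was -0.35 for rno-miR-192-5p, 0.16 for rno-miR-194-5p and -0.01 for rno-miR-375-3p (permutation p = 0.268, 0.608 and 0.987, Spearman's rho -0.27, 0.26 and 0.14). Adjusted p was 0.724 or more in the 9 relations with the red blood cell, white blood cell and vessel lists by Pearson's r. With library total, r was -0.15, -0.27 and 0.39 in the same order (permutation p = 0.638, 0.396 and 0.215). With rno-miR-122-5p, 7 reads at most left no relation to examine.

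Other epithelial and pancreatic miRNAs were scarce. The pancreatic miR-216a-5p, miR-216b-5p and miR-217-5p summed to 1.40 to 4.04 CPM in a library, and none was retained, whereas rno-miR-375-3p reached 228 CPM. Of the epithelial list, miR-141-3p (21.0 CPM) and miR-205 (12.5 CPM) were retained, and miR-200a-3p, miR-200b-3p, miR-200c-3p and miR-429 had means of 1.28, 0.528, 1.19 and 0.397 CPM. The relation of rno-miR-375-3p to the mean of the 2 retained ones, miR-141-3p and miR-205, had r = 0.57 (permutation p = 0.0503, adjusted p = 0.360, Spearman's rho = 0.22, adjusted p = 0.839). Without ethanol rats 3 and 23 it had r = 0.05.

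The choroid plexus, the secretory epithelium of the ventricles that borders the hippocampus, gave the list related to rno-miR-375-3p. Its list was miR-204-5p, miR-211-5p, miR-449a-5p, miR-34b-5p and miR-34c-5p, which summed to 32790 to 57675 CPM in vehicle and 18161 to 81308 CPM in ethanol rats. Across the 12 libraries, log2 CPM of rno-miR-375-3p and the list mean had Pearson's r = 0.91 (permutation p = 0.00011, adjusted p = 0.00297) and Spearman's rho = 0.85 (permutation p = 0.00068, adjusted p = 0.0184). It was the only one of 27 relations with an adjusted p under 0.05. Members and lists were chosen with earlier results of these data known, so these p-values do not measure chance alone. Ethanol rats 3 and 15 were lowest in both measures, and without them r was 0.77. With each library left out in turn r stayed between 0.83 and 0.96, and within the 8 ethanol rats it was 0.93. In a bulk sample, fewer cells of a type and less RNA per cell cannot be told apart.

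**Figure D4:**
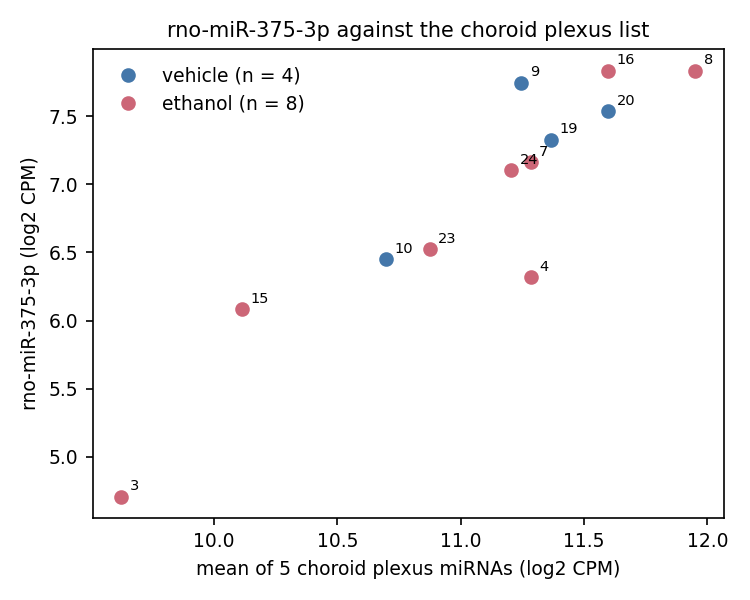
Log2 CPM of rno-miR-375-3p (vertical axis) against the mean log2 CPM of 5 choroid plexus miRNAs (horizontal axis), each point 1 library with its rat number. Ethanol rat 3 is lowest and ethanol rat 8 highest in both, at 4.71 and 7.84 log2 CPM of rno-miR-375-3p.

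Over the 5 list members, r against rno-miR-375-3p was from 0.83 for miR-449a-5p to 0.92 for miR-34c-5p. For the same 2 miRNAs rho ranged from 0.73 to 0.92. Pearson's r was 0.84 for miR-204-5p, 0.85 for miR-211-5p and 0.90 for miR-34b-5p. MiR-34b-5p and miR-34c-5p come from the miR-34b/c locus, known from ciliated epithelium. The list mean spanned a 5.01-fold range, against 8.93-fold for rno-miR-375-3p. None of the 5 had an unadjusted p under 0.05 for ethanol, while 17 of 420 (4.05%) did over all retained miRNAs. Their log2 fold changes were from -0.17 for miR-449a-5p to 0.01 for miR-211-5p. With the list mean as a covariate, a fit added after the data were seen, rno-miR-375-3p had a log2 fold change of -0.26 (standard error 0.21). The part of choroid plexus tissue, or of other ciliated epithelium, in the level of rno-miR-375-3p was not tested.

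Muscle miRNAs also differed between libraries. Over 8 striated muscle miRNAs the summed level was 177 to 1819 CPM in vehicle and 153 to 1767 CPM in ethanol rats, with miR-208a-3p and miR-208b-3p at 0 in all. Vehicle rats 9, 19 and 20 and ethanol rat 16 were high, and in rno-miR-375-3p these 4 rats lay among the 5 highest, with ethanol rat 8 the highest. The relation of rno-miR-375-3p to the mean of the 4 retained muscle miRNAs had r = 0.56 (permutation p = 0.0533, adjusted p = 0.360) and rho = 0.64 (permutation p = 0.0278, adjusted p = 0.250). The part of muscle tissue in the level of rno-miR-375-3p was not tested. Of 4 retained list members, 2 had an unadjusted p under 0.05 for ethanol, both lower (miR-133a-3p and miR-499-5p). Over all retained miRNAs the share was 17 of 420 (4.05%). EdgeR gave none of the 4 an adjusted p under 0.05.

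The neuronal list mean had r = -0.72 (permutation p = 0.00766) and rho = -0.76 (permutation p = 0.00693) with rno-miR-194-5p. This failed the adjustment (adjusted p = 0.103 and 0.0936), and r was -0.40 without ethanol rats 4 and 8. Taken as deviations from group means, r was -0.65 (permutation p = 0.0211, adjusted p = 0.285). Because rno-miR-194-5p varied little more than counting error, this comparison cannot decide whether the 2 are related.

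The retained miRNAs most like each member over the 12 libraries were taken as the 3 with the highest Pearson's r of log2 CPM. For rno-miR-192-5p these were miR-181a-5p (r = 0.97), miR-181b-5p (0.93) and miR-21-3p (0.90). MiR-181a-5p, a miRNA abundant in brain, held 10.8% to 16.1% of the counts of a library and ranged 1.62-fold. It had 32.2 to 39.4 times the CPM of rno-miR-192-5p. Its log2 fold change for ethanol was 0.18 (standard error 0.12, adjusted p = 0.971 in edgeR's quasi-likelihood test). Shares of a library are not independent of each other, and no p is given for likeness.

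**Figure D5:**
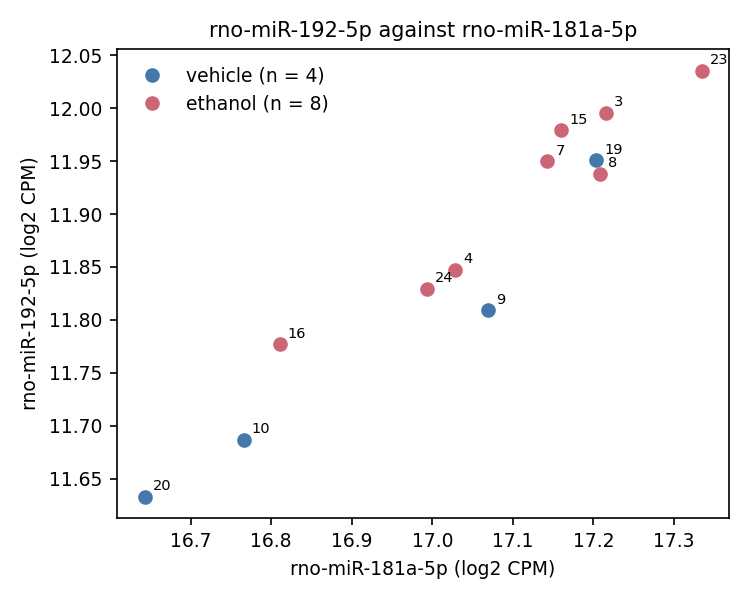
Log2 CPM of rno-miR-192-5p (vertical axis) against rno-miR-181a-5p (horizontal axis), each point 1 library with its rat number. Vehicle rat 20 is lowest and ethanol rat 23 highest in both, at 3176 and 4198 CPM of rno-miR-192-5p.

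For rno-miR-194-5p the highest r were lower, 0.74 for miR-873-3p, 0.67 for miR-135a-3p and 0.67 for miR-100-5p. For rno-miR-375-3p they were 0.92 for miR-34c-5p, 0.91 for miR-34c-3p and 0.90 for miR-34b-3p, all from the miR-34b/c locus known from ciliated epithelium, of which miR-34c-5p belongs to the choroid plexus list.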

How the data were processed

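Small RNA (20 to 30 nt, gel purified from 1 µg of total RNA) was read for 37 cycles. For each rat the authors deposited 1 estimated count for each of 753 mature miRNAs, not scaled to depth. The submitters' notes name cutadapt, Partek and rn5. Which tool counted reads is not given in the sources used here. Values were 80.5% to 83.9% whole (tolerance 1e-09) and were rounded.

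Fits used edgeR 4.0.16, DESeq2 1.42.0 and limma 3.58.1 under R 4.3.3, with TMM scaling and a prior count of 2 for log2 CPM. A quasi-likelihood fit without covariates was adjusted by Benjamini-Hochberg over 420 retained miRNAs and checked on simulated data. Permutation tests were two-sided, with 100000 permutations for correlations. List means were taken over retained list members only. Members and marker lists were chosen with earlier results of these data known. Named miRNAs were the members, their other arms, the lists and the 3 most alike per member. Alternatives covered scaling, filter, test, rounding, a covariate and each rat left out. MiR-486 was not found, and sequencing sets are not given in the labels.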

Additional observations from a re-analysis of the deposited data

Results flagged for a closer look

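In 12 measures (4 miRNAs, 7 list means and library total) the vehicle and ethanol rats were examined separately for a library far from the rest of its group. Of 24 groups 2 held one, against 1.2 by chance, and neither was in one of the 4 miRNAs. The mean of the striated muscle list was lowest in vehicle rat 10, at 5.40 log2 CPM, where vehicle rats 9, 19 and 20 lay between 8.22 and 8.33. This gap took 0.961 of the whole vehicle range. The same mean was highest in ethanol rat 16, at 8.30 log2 CPM, with the remaining 7 ethanol rats between 5.24 and 6.22. That gap took 0.679 of the whole ethanol range.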

How the results depend on the processing

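The count of miRNAs with an adjusted p under 0.05 was 0 in edgeR and 1 with DESeq2's Wald test. With each rat left out it lay between 0 and 3, and the 3 came without ethanol rat 16. The fold changes of rno-miR-192-5p, rno-miR-194-5p and rno-miR-375-3p kept their direction and an adjusted p above 0.05 in every alternative run. In the permutation test rno-miR-192-5p passed 0.05 with DESeq2's size factors (difference in mean log2 CPM 0.16, exact permutation p = 0.0384). With each rat left out its difference was 0.10 to 0.21 (exact permutation p from 0.0121 to 0.170). For rno-miR-122-5p the difference was -0.15 with a prior count of 0.5, and -0.13 to 0.21 with each rat left out. Taken as deviations from group means, r changed sign for rno-miR-194-5p against the choroid plexus (0.0524), epithelium (0.0130) and muscle (0.26) lists and for rno-miR-192-5p against library total (0.14). The cause was not tested. The groups share no animal numbers, so no paired fit applied. With 7 reads at most, depth limits rno-miR-122-5p.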

Other observations

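Among the 415 retained miRNAs outside the choroid plexus list, rno-miR-375-3p ranked 6 by its correlation with the list mean. The 5 ahead of it, named here after their values were seen, were miR-34c-3p, miR-448-3p, miR-1298, miR-34b-3p and miR-3552, with r from 0.92 to 0.97.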
